A study of Mus musculus with 4 samples.

Results

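The genes described here encode the enzymes and transporters of glycolysis and the hypoxia response that shares many of them. A list of 40 such genes was looked up among the probe sets that carry 1 gene symbol on the mouse array, and each gene was read by its probe set with the highest mean over the 4 arrays. Of the 40, 36 were measured in this way, among 18193 genes and 45037 probe sets in all. Gapdh was read only by control probe sets of the array or shared ones and is given as values, Bnip3l only by probe sets shared with its pseudogene, and Gpi1 and Eno1 by none under their symbols. The cells were mammary epithelial cells of a Deaf-1-null mouse, immortalised with the E6/E7 proteins of HPV16, so all groups lack the endogenous Deaf-1 and all carry the viral proteins. Clone E1 and clone C1 of these cells were each transduced with a retrovirus that encodes Deaf-1 or with the empty control retrovirus, then selected in puromycin for 48 hours, and 1 array was hybridised for each combination. Each group is thus 2 clones of 1 immortalised culture, and each clone 2 arrays that differ in retrovirus. The labels name no separate cultures beyond the clones, so p-values here cover the spread among these arrays alone.

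Glycolysis turns glucose into pyruvate in the cytosol, and lactate dehydrogenase then regenerates the cofactor that keeps it running without oxygen. Hypoxia-inducible factor (HIF) is a dimer of an oxygen-labile alpha subunit, encoded by Hif1a or Epas1, with the stable subunit encoded by Arnt. Prolyl hydroxylases mark the alpha subunit in the presence of oxygen, Vhl then directs its destruction, and in low oxygen the dimer binds DNA at a short core motif near its target genes. Both alpha subunits are controlled largely at the level of protein, which an RNA array does not read. Many glycolytic genes are HIF targets, and both programmes are commonly raised in breast tumours.

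The values are RMA expression on a log2 scale, in which a difference of 1 is 2-fold. They are compared only between arrays of the same probe set. A background level of 3.83 was set as the 95th percentile of 44 olfactory receptor probe sets, and 35 of the 36 genes had a mean above it, all but Car9. The label of the retrovirus held at the level of RNA, with Deaf1 (1448446_at) at 6.25 in clone E1 and 6.73 in clone C1 with the Deaf-1 retrovirus, against 4.91 and 5.01 with the control retrovirus (difference 1.53, limma's unadjusted p = 0.00123, adjusted p = 1). The control readings, from cells that lack the endogenous Deaf-1, also lay above the background level, and their source was not tested. The label of the cells was less clear. Of 10 keratin and other epithelial markers, 6 lay above background on both E1 arrays and 4 on both C1 arrays, and Cdh1, Krt18, Krt14 and Krt17 lay below it on all 4. The summed linear level of the 10 was 212.9 and 176.8 in E1, against 171.3 and 190.2 in C1. All 8 fibroblast markers, among them Col1a1, Vim and Pdgfra, lay above it on every array. Of 5 endothelial markers Kdr and Tek did so, of 4 leukocyte markers Csf1r and Cd3e. Adipoq and Lep were below background in both clones. The clones differed more from each other than the retroviruses did, with a correlation across probe sets of 0.992 between the E1 arrays and 0.994 between the C1 arrays, but 0.976 to 0.983 across clones.

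Promoter windows of 6 genes that stood well apart between the clones are shown first, because HIF acts through such sequences. Each window holds 250 bases before and 50 after an annotated start site (RefSeq, build GRCm38.p6), and the first window listed for a gene is used. Capitals mark the core of the HIF motif, ACGTG or GCGTG, on either strand. The first 3 windows belong to genes with lower values in clone E1 than in clone C1, the next 3 to genes with higher values in E1. Ldha, the lactate dehydrogenase subunit of glycolytic tissues, is shown for comparison, and its window held the most matches of the listed genes. Aldoa also stood apart between the clones, with higher values in E1, but its window held neither core and is not shown.

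Aldoc, chr11:78322823-78323122, plus strand: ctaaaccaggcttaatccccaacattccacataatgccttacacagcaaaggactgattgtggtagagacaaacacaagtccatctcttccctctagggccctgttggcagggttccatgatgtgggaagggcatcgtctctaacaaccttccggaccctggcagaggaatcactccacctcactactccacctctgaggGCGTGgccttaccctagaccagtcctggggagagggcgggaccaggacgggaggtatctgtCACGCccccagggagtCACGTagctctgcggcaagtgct
Pfkfb4, chr9:108991652-108991951, plus strand: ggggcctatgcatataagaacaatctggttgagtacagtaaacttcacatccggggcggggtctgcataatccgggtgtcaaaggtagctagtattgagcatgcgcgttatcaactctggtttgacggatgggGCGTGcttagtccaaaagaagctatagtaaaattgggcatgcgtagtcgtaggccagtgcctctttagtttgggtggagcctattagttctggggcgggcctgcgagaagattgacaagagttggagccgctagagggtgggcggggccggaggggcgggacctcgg
P4ha1, chr10:59323046-59323345, plus strand: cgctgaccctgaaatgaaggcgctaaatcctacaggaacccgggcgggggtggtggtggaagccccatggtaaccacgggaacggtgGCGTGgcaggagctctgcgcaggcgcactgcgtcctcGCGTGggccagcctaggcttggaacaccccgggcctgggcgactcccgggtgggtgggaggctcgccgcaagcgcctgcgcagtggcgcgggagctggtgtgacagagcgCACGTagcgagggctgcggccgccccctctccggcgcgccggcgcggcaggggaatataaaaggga
Egln3, chr12:54203825-54204124, minus strand: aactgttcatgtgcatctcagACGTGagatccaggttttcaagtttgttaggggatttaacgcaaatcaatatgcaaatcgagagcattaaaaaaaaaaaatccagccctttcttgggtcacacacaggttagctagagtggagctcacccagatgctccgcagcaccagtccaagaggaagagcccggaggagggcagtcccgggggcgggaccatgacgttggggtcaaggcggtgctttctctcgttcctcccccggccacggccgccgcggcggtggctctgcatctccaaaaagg
Pdk1, chr2:71872974-71873273, plus strand: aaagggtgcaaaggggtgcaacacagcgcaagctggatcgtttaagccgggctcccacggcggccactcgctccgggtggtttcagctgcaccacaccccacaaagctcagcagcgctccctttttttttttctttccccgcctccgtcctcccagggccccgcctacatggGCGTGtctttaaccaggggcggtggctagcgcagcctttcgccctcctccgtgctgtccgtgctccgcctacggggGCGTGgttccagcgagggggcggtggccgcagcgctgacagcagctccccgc
Slc16a1, chr3:104638414-104638713, plus strand: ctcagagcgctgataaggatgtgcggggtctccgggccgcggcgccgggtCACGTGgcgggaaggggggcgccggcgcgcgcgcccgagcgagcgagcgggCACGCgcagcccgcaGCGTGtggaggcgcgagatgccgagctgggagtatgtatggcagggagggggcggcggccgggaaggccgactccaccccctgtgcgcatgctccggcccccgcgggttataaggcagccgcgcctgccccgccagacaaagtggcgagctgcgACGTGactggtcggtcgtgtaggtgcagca
Ldha, chr7:46845554-46845853, plus strand: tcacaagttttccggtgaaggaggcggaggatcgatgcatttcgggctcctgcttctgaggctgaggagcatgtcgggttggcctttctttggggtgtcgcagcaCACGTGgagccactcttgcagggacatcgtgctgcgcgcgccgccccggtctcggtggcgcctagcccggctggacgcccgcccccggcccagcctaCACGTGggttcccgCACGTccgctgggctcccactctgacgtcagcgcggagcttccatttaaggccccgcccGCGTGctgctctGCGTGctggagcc

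The core ACGTG was found 1 time in the windows of Aldoc, P4ha1 and Egln3, 3 times in that of Slc16a1, 5 times in that of Ldha and not in those of Pfkfb4 and Pdk1, which held only GCGTG. A palindromic CACGTG counts on both strands. Windows were at hand for 36 of the 40 listed genes, all but Epas1, Slc2a3, Ndrg1 and Bnip3l. Of these, 20 (55.6%) held ACGTG, against 20.7% of 17492 windows of protein-coding genes and 19.7% of 27025 windows of all genes. With GCGTG included the shares were 77.8%, 49.2% and 43.8%. ACGTG was found among the genes with lower values in E1 as well as among those with higher values. A match describes the letters of this stretch and says nothing of binding.

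Between the clones, Epas1, which encodes HIF-2 alpha, had the largest fitted difference of these genes and was the only one of the 36 to pass the test. The difference of Aldoc is only bounded, since its E1 mean lay below background, so the true order of these genes is not known. On probe set 1435436_at it read 8.83 with the Deaf-1 retrovirus and 8.60 with the control retrovirus in clone E1, against 6.03 and 5.48 in clone C1. Its mean was 8.72 ± 0.16 in E1 and 5.75 ± 0.39 in C1 (SD, n = 2 arrays each), a 7.81-fold difference. The log2 difference of 2.97 (standard error 0.16, 95% interval 2.52 to 3.41) had an adjusted p of 0.0415 from limma, with retrovirus as a term and Benjamini-Hochberg adjustment over all probe sets. The other Epas1 probe set, 1449888_at, read 6.97 and 6.40 in E1, against 4.79 and 4.96 in C1 (adjusted p = 0.103). A difference in RNA per cell and a difference in the share of cells that make the RNA cannot be told apart in such bulk samples. With any 1 array left out, and with clone alone in the fit because 3 arrays leave no residual degree of freedom beside a retrovirus term, the adjusted p for Epas1 was 0.115 to 0.174 and the log2 difference 2.69 to 3.24. The adipocyte marker Fabp4 moved with clone as well, at 10.56 and 10.59 in E1 against 3.77 and 2.57 in C1, and its part in the result was not tested. The summed linear level of the 3 measured adipocyte markers was 1522 and 1549 in E1, against 24.6 and 16.2 in C1. In E1 nearly all of this sum was Fabp4. Adipoq and Lep, below background on every array, differed by -0.02 and 0.13. The summed level of the fibroblast markers was 42210 and 40270 in E1, against 36110 and 35470 in C1. That of the endothelial markers was 200.0 and 198.7, against 163.7 and 127.9. Of the endothelial markers above background, Tek differed by 0.63 and Kdr by -0.02. Single markers also stood apart between the clones, in both directions. Higher in E1 were Krt7, Pdgfrb and Vim, by 1.36, 0.83 and 0.62 (limma's adjusted p = 0.089, 0.148 and 0.191). Thy1 (-0.26) and Dcn (-0.23) were lower in E1 without overlap of the clones. Epcam (-0.24) and Pdgfra (-0.16) were lower on average but overlapped. Cd68 had -0.50 on readings below background.

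The other HIF subunits differed less between the clones. Hif1a, the main alpha subunit of most cells, read 11.19 and 11.12 in E1 (Deaf-1, then control retrovirus), against 10.58 and 10.49 in C1. The clones did not overlap, but the log2 difference of 0.62 (standard error 0.14) had an adjusted p of 0.191 from limma. A pair of dimmer Hif1a probe sets gave 0.92 and 0.65, and the last lay below background. Arnt, the shared partner, had overlapping values in the clones, with a difference of -0.05 and a 95% interval of -0.45 to 0.35.

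**Figure D1:**
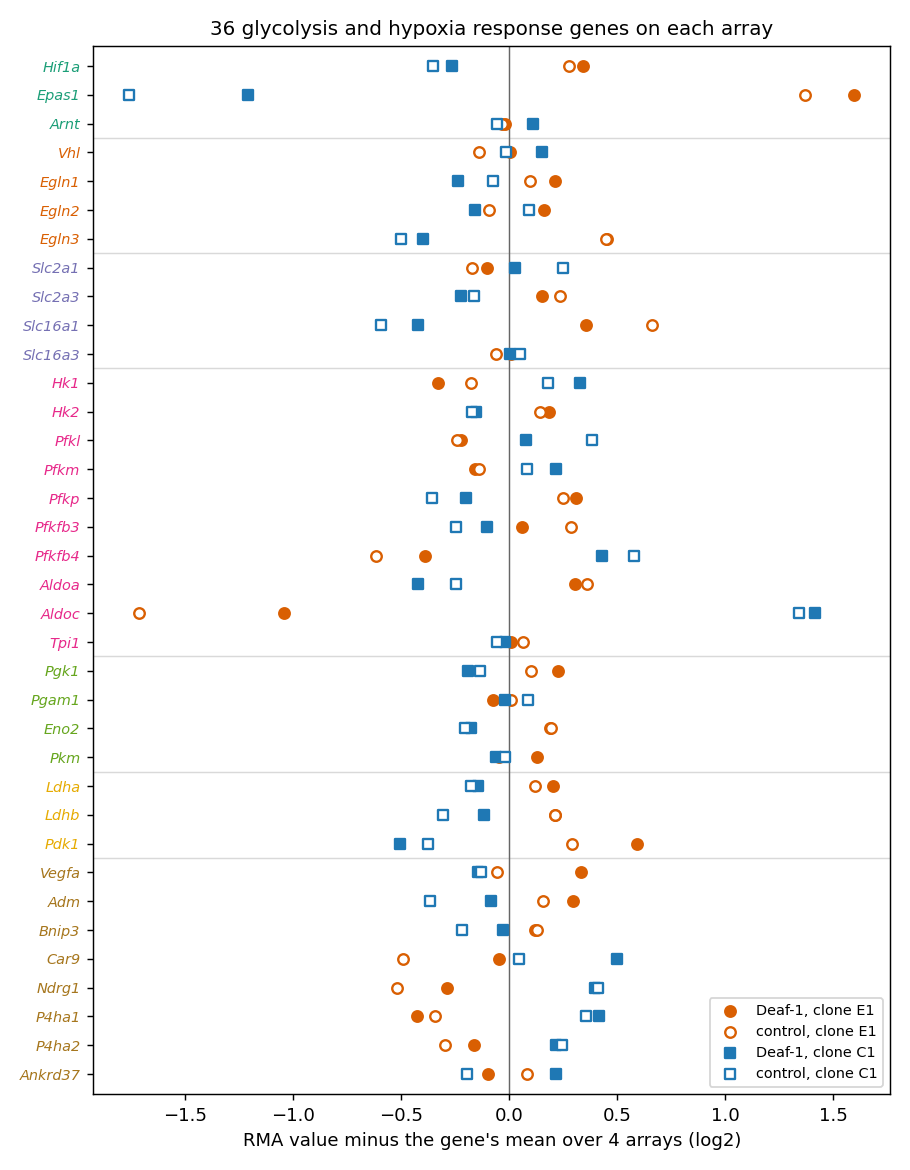
RMA value of each of 36 genes on each array minus that gene's mean over 4 arrays (log2, horizontal axis), with genes in rows ordered by role, clone E1 as orange circles, clone C1 as blue squares, and filled symbols for the Deaf-1 retrovirus. The colours part without overlap for 19 genes higher in E1 and 10 lower. Those with limma's unadjusted p under 0.01 are Epas1, Egln3, Pdk1, Slc16a1, Aldoa, Aldoc, Pfkfb4, Ndrg1 and P4ha1. Filled and open symbols of a clone lie up to 0.67 apart (Aldoc in E1).

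Counted over all 36 genes, the clone comparison gave 1 call at an adjusted p under 0.05, against 0.109% of all 45037 probe sets. At an unadjusted p under 0.01, 5 of the 35 genes above background had higher values in E1 (14.3%) and 4 had lower values (11.4%), against 4.74% and 5.32% of the 22403 probe sets above background. Both E1 arrays lay above both C1 arrays for 19 of the 35 (54.3%, against 27.4% of those probe sets), and below them for 9 (25.7%, against 32.9%). The median difference, E1 minus C1, was 0.16 over the 36 genes and -0.02 over the probe sets above background, and the median absolute difference was 0.38 against 0.25. These shares describe this list and were not tested. When retrovirus was not a term in the fit, which leaves 1 more residual degree of freedom, 5 genes were called higher in E1 (13.9%, against 2.48% of all probe sets) and 4 lower (11.1%, against 2.64%). They were the same 9 genes as those with an unadjusted p under 0.01. The shares of all 45037 probe sets include those below background, where only 22403 lay above it, against 35 of the 36 genes. They are thus not on the same footing as the shares at 0.01. With 1 array left out, 1 clone is left with a single array, and the fit on clone alone no longer called Epas1 or any other of these genes.

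**Figure D2:**
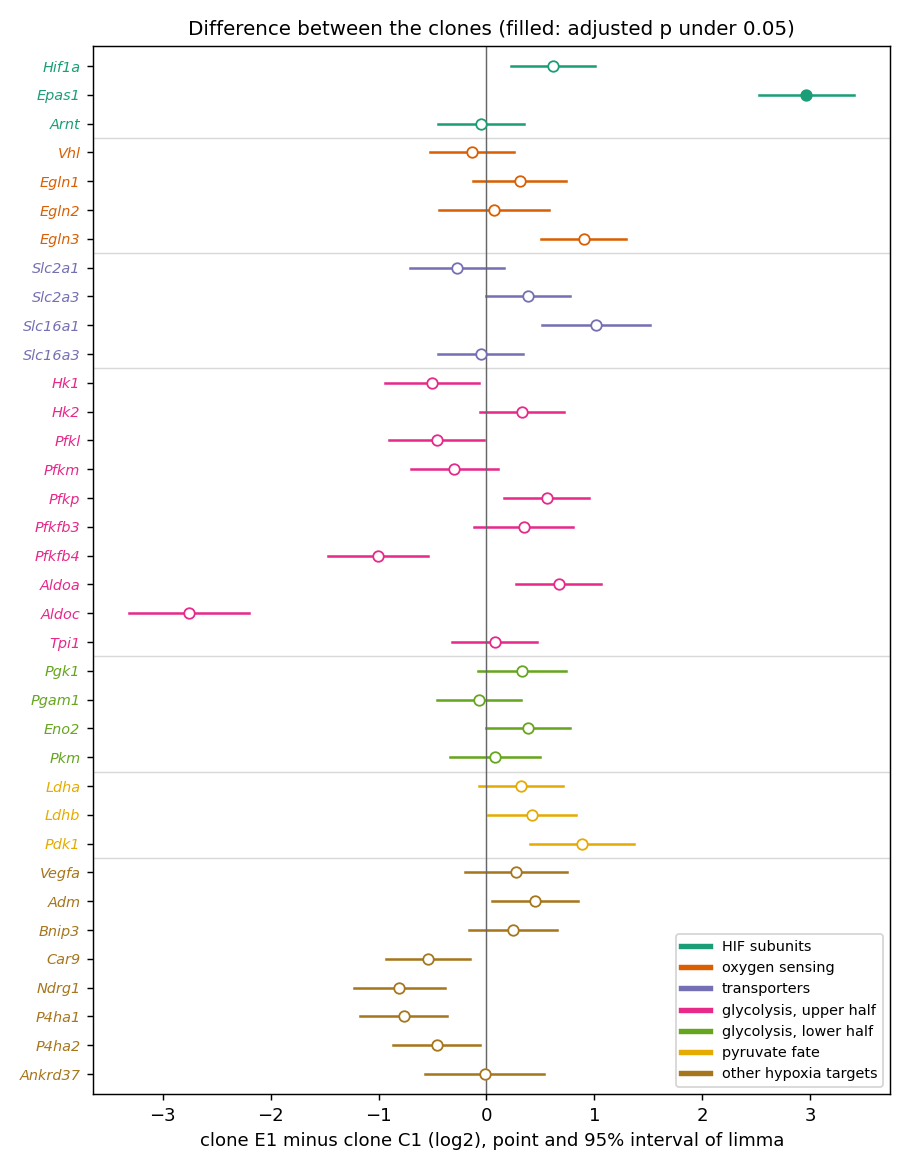
Difference between the clones, E1 minus C1 (log2, horizontal axis), for each of 36 genes in rows coloured by role, with limma's 95% interval as a line and a filled point for an adjusted p under 0.05. Epas1 at 2.97 is the only filled point, and Aldoc, at -2.76, has a mean below background in E1, so its point shows a fitted value and not a measured size.

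Among the oxygen sensors, Egln3, a prolyl hydroxylase that is itself induced by HIF, read 6.88 with either retrovirus in E1, against 6.03 and 5.93 in C1. Its difference of 0.90 (95% interval 0.51 to 1.29, limma's adjusted p = 0.132) was larger than the spread within either clone, and its dimmer probe set gave 1.06. Egln1, the main oxygen sensor, had a difference of 0.31 without overlap of the clones, although its other probe set gave -0.16. Egln2, another hydroxylase, and Vhl, the ubiquitin ligase subunit that recognises hydroxylated HIF, overlapped between the clones, with differences of 0.07 and -0.14. Of the transporters, Slc16a1, which carries lactate and pyruvate (MCT1), read 8.53 and 8.84 in E1, against 7.76 and 7.59 in C1, a 2.02-fold difference (adjusted p = 0.144). Slc16a3 (MCT4), the lactate exporter of glycolytic cells, differed by -0.05. The glucose transporter Slc2a1 (GLUT1) read 9.14 and 9.07 in E1, against 9.26 and 9.48 in C1, and Slc2a3 (GLUT3) differed the other way by 0.39, with its 3 other probe sets at 0.40, 0.78 and 0.62. The other Slc2a1 probe sets gave -0.16 and -0.15. No transporter passed the adjusted test.

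In the preparatory steps of glycolysis, the isozymes of a single step stood on opposite sides. Aldoc, the aldolase known from brain, read 3.94 and 3.27 in E1, against 6.40 and 6.32 in C1, and of the E1 arrays only that with the Deaf-1 retrovirus was above background. Its E1 mean of 3.61 lay below the background level, against 6.36 in C1, so the size of the difference is only bounded. With each E1 array at the higher of its value and the background level, C1 was at least 5.57-fold above E1. The fit gave -2.76 on the log2 scale, which is no bound, with an adjusted p of 0.0559 from limma. It passed the threshold when retrovirus was not a term (adjusted p = 0.0062), and over the other alternatives that used this probe set and all 4 arrays the adjusted p was 0.000218 to 0.063. The only other Aldoc probe set was below background on every array, with a difference of -0.07. With 1 array left out and clone alone in the fit, the adjusted p was 0.0905 to 0.246. Aldoa, the ubiquitous aldolase, read 11.72 and 11.77 in E1, against 10.99 and 11.17 in C1, a 1.59-fold difference the other way (adjusted p = 0.179). All 5 Aldoa probe sets, of a type that can cross-hybridise, were higher in E1 by 0.33 to 0.95.

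The same held for the enzymes that set the pace of the pathway. Pfkfb4, which makes the activator fructose 2,6-bisphosphate and is a HIF target, read 5.43 and 5.20 in E1, against 6.24 and 6.40 in C1, so that C1 was 2.01-fold above E1 (log2 difference -1.01, adjusted p = 0.137). Its relative Pfkfb3 read 6.23 and 6.46 in E1, against 6.07 and 5.92 in C1. The clones were thus separated in both, in opposite directions. Hexokinase 1, the constitutive form, read 8.18 and 8.33 in E1, against 8.84 and 8.69 in C1 (Hk1, difference -0.51). Hk2, the inducible hexokinase of muscle and tumours, read 7.10 and 7.06 in E1, against 6.76 and 6.75 in C1. The hexokinases too were separated in opposite directions. Of the phosphofructokinase subunits, Pfkp had a difference of 0.56, while Pfkl and Pfkm had -0.46 and -0.30, again without overlap. Limma's adjusted p for these 7 genes was 0.137 to 0.476. The 95% intervals of Pfkfb3 (-0.11 to 0.81), Hk2 (-0.06 to 0.72) and Pfkm (-0.70 to 0.10) held 0. Clones without overlap were common, with E1 above C1 for 27.4% of the probe sets above background and below it for 32.9%.

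Of the later steps, Pgk1 and Eno2 had differences of 0.33 and 0.38 without overlap of the clones. Pgam1 and Pkm, which encodes pyruvate kinase, lay within 0.08 of equality and overlapped. Tpi1, triose phosphate isomerase, had a difference of 0.08 on its brightest probe set and of 0.15 and 0.34 on the others. The interval for Pkm was -0.33 to 0.49. Gapdh, read by the 3' control probe set of the array, was 12.50 and 12.47 in E1, against 12.40 and 12.48 in C1. Its 3' reading minus its 5' reading, a measure of RNA integrity, was -0.22 and -0.27 in E1, against -0.24 and -0.22 in C1. These readings overlapped between the clones. Ldha read 11.46 and 11.38 in E1, against 11.11 and 11.08 in C1, and Ldhb, the subunit of oxidative tissues, read 8.13 and 8.13 in E1, against 7.80 and 7.61 in C1. Both subunits of lactate dehydrogenase thus read higher in E1, by 0.32 and 0.42, without passing the adjusted test. Pdk1, a kinase that inhibits pyruvate dehydrogenase and a direct HIF-1 target, read 7.59 and 7.29 in E1, against 6.50 and 6.63 in C1. Its difference of 0.88 had a 95% interval of 0.40 to 1.36 (adjusted p = 0.160), and its other probe sets above background gave 0.87 and 1.04.

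**Figure D3:**
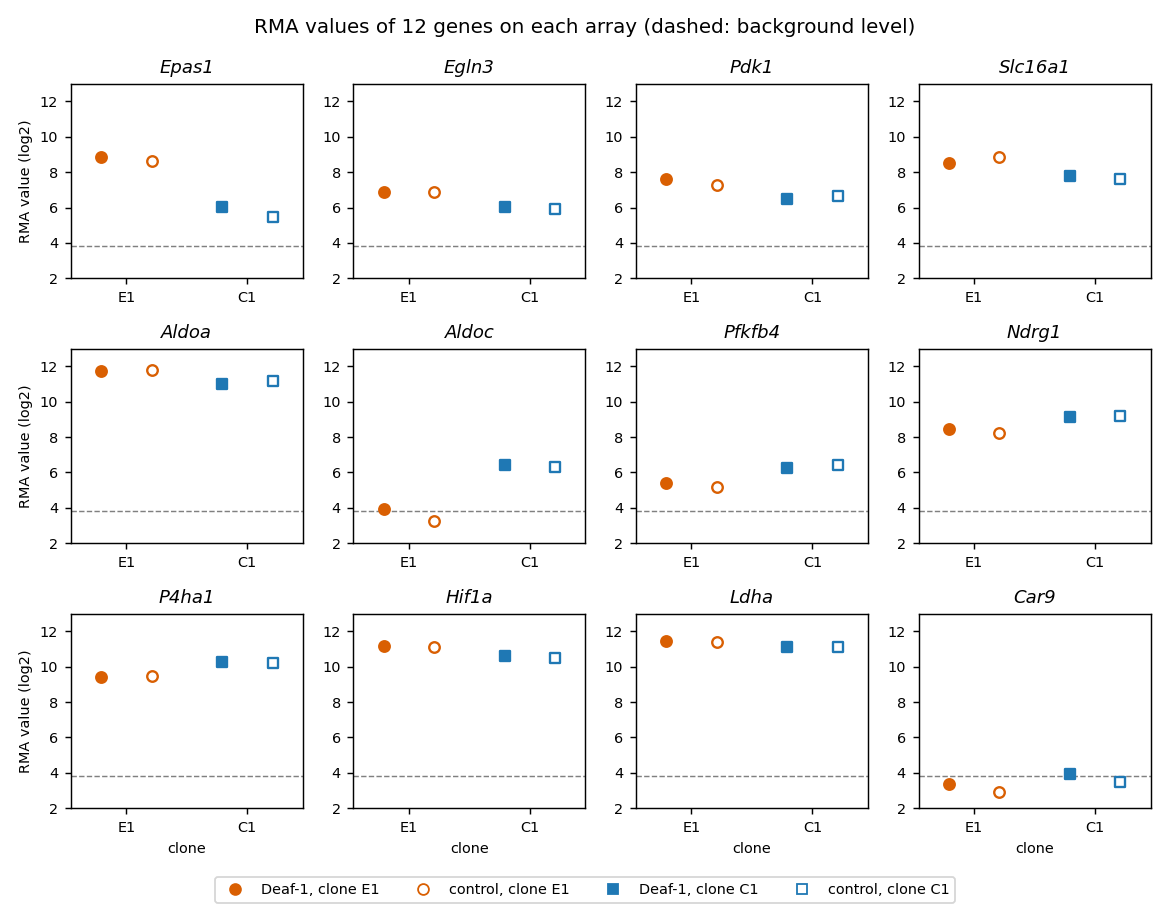
RMA values (log2, vertical axis) of 12 genes on each of the 4 arrays, a panel for each gene, with clone E1 (orange circles) left of clone C1 (blue squares), filled symbols for the Deaf-1 and open symbols for the control retrovirus, and a dashed line at the background level (3.83). Epas1 is near 9 in E1 and below 6.5 in C1, Aldoc is near the dashed line in E1 and above 6 in C1, and Car9 crosses that line only on the Deaf-1 array of C1.

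The HIF targets outside metabolism stood on both sides. Ndrg1, a stress-induced gene of differentiating epithelium, read 8.47 and 8.24 in E1, against 9.15 and 9.17 in C1, and its 5 probe sets gave differences of -0.81 to -0.96. P4ha1, a collagen prolyl hydroxylase, read 9.40 and 9.49 in E1, against 10.24 and 10.18 in C1, and its relative P4ha2 also read lower in E1 (-0.46). These genes with lower values in E1 stood beside targets with higher ones. Adm, the vasodilator adrenomedullin, read 10.08 and 9.94 in E1, against 9.70 and 9.41 in C1. Bnip3, a mitophagy receptor, read 9.22 and 9.23 in E1, against 9.07 and 8.89 in C1. Vegfa, the angiogenic factor, read 7.54 and 7.15 in E1, against 7.07 and 7.08 in C1. Each of these 3 was higher on both E1 arrays, by 0.25 to 0.45 on average, and none passed the adjusted test. Ankrd37 overlapped between the clones. Car9, the cell-surface carbonic anhydrase widely used as a marker of hypoxia, was above background on 1 array only. By role, the median difference between the clones was 0.62 for the 3 HIF subunits, 0.42 for the 3 genes of pyruvate fate, 0.19 for 4 oxygen sensing genes, 0.17 for 4 transporters, 0.20 for 4 genes of the later steps, -0.11 for 10 of the earlier steps and -0.24 for the 8 other hypoxia targets. The last median includes Car9 (-0.54), on readings mostly below background. Without Car9 the middle value of that role is that of Ankrd37 (-0.02).

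None of these genes was called in the comparison of the Deaf-1 retrovirus with the control retrovirus. The question put to this contrast was which genes respond to Deaf-1, a transcription factor, in cells that lack it. Of the 36 genes 0 passed limma's unadjusted p under 0.01, against 0.0111% of all probe sets, and 0 had an unadjusted p under 0.05 or an adjusted p below it. With clone as a block the counts at 0.01 were 0 of 36 and 0.0244% of all probe sets, and 1 gene, Car9, had an unadjusted p under 0.05. The median difference, Deaf-1 minus control, was 0.05 over the 36 genes and -0.02 over the probe sets above background, and the median absolute difference 0.07 against 0.09. Among the 35 genes above background, 11 were higher with Deaf-1 in both clones (31.4%, against 15.1% of the probe sets above background) and 3 were lower in both (8.57%, against 21.3%). These shares were not tested, and each clone contributes 1 array to each side.

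Car9 had the largest moderated t of the 36 genes, on readings mostly below background. It read 3.37 in E1 and 3.92 in C1 with the Deaf-1 retrovirus, against 2.93 and 3.46 with the control retrovirus. Limma's unadjusted p was 0.188, or 0.0322 with clone as a block, with an adjusted p of 1 in both fits. Since 3 of the 4 readings lay below the background level, no size is read from them. The next by their moderated t were Vhl, Vegfa and Adm. Vhl read 7.21 in E1 and 7.36 in C1 with Deaf-1, against 7.07 and 7.20 with control, and its other probe set differed by less than 0.05 in either clone. Vegfa read 7.54 and 7.07 with Deaf-1, against 7.15 and 7.08 with control, a difference of 0.39 in E1 and -0.01 in C1. Adm read 10.08 and 9.70 with Deaf-1, against 9.94 and 9.41 with control. Of these 3, only Vhl had retrovirus groups that did not overlap, and each interval held 0, at -0.26 to 0.56 for Vhl, -0.37 to 0.75 for Vegfa and -0.47 to 0.89 for Adm.

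The genes with the largest difference between clones had wide intervals here. Epas1 differed by 0.23 in E1 and 0.55 in C1 between retroviruses, with an interval of -3.31 to 4.09 when clones served as replicates and -0.05 to 0.83 with clone as a block. Aldoc differed by 0.67 in E1, across the background level, and by 0.07 in C1. Hif1a differed by 0.06 and 0.09 (interval -0.77 to 0.93, or -0.31 to 0.46 with the block). For the metabolic core the block gave intervals of -0.33 to 0.44 for Ldha, -0.51 to 0.36 for Slc2a1, -0.36 to 0.42 for Hk2 and -0.34 to 0.48 for Pkm. Over the 36 genes the 95% interval reached 0.38 to 3.70 to either side of the estimate (median 0.61), and 0.39 to 0.55 with the block. With 4 arrays, a gene's difference smaller than its own reach could not have an unadjusted p under 0.05 in limma. The threshold of 0.01 needed a larger one.

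**Figure D4:**
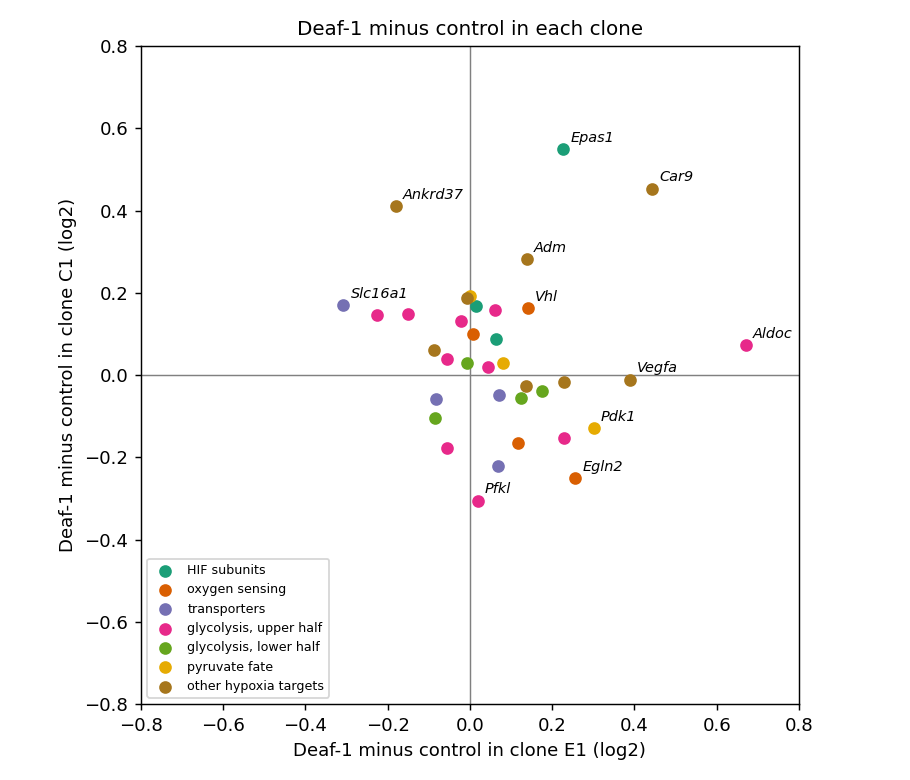
Difference between retroviruses, Deaf-1 minus control (log2), in clone E1 (horizontal axis) and clone C1 (vertical axis), 1 point for each of 36 genes coloured by role. Car9 lies at 0.44 and 0.45 on readings mostly below background, and most points lie within 0.3 of 0 on both axes. In the quadrants of opposite sign lie 21 of the 36 genes, among them Ankrd37, Egln2 and Slc16a1. Opposite signs were common in general, since 15.1% of the probe sets above background were higher in both clones and 21.3% lower in both.

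Genes of neighbouring pathways were counted in the same fits, with 0 called for retrovirus at an unadjusted p under 0.01 and 0 for clone at an adjusted p under 0.05 in each of 5 lists. At limma's unadjusted p under 0.01 in the comparison of clones, where 4.74% of the probe sets above background were higher in E1 and 5.32% lower, 1 of 13 other regulators of the HIF pathway was higher and 3 were lower. Unlike that share, each list counts all its measured genes, also those below background (11 of the 13 lay above it). With so few genes in a list these counts are given as a description. Cited2, which competes with HIF for its coactivators, read 7.69 and 7.77 in E1, against 9.46 and 9.16 in C1 (difference -1.58, adjusted p = 0.086). Hif3a, an alpha subunit with inhibitory forms, had a difference of 1.01, and Os9 -0.75. Of 29 further hypoxia-induced genes, 2 were higher and 3 lower. Plod2, a collagen lysyl hydroxylase, read 8.40 and 8.30 in E1, against 9.62 and 9.86 in C1. Hmox1, which degrades haem, read 9.01 and 9.07 in E1, against 7.90 and 7.98 in C1, and Tmem45a had a difference of -0.99. The tissue-restricted isozymes of glycolysis gave 0 of 11 in either direction, and the pentose phosphate pathway 1 of 8 higher and 1 lower. Of 17 genes of pyruvate entry into the mitochondrion and gluconeogenesis 1 was lower, Pdp1, a phosphatase that opposes the pyruvate dehydrogenase kinases. It read 5.64 and 6.20 in E1, against 7.43 and 7.15 in C1. The median difference of the lists was -0.06, -0.09, 0.13, -0.002 and 0.01 in the order given.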

How the data were processed

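RNA from 4 cell cultures was hybridised to 4 mouse arrays of the Affymetrix type, 1 for each clone and retrovirus. The deposited values are log2 expression by RMA from the authors, 1 per probe set and array; RMA and limma are named without versions in the submitters' processing notes. The values run from 1.75 to 13.63 and were not normalised again. Of 45101 probe sets only the 64 controls were dropped, whatever the signal of the rest. Symbols came from the array's annotation: 34945 probe sets had 1 symbol, 932 several and 9160 none.

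Groups follow the labels. Deaf-1 was compared with control, the clones as replicates, and E1 with C1, retrovirus as a term, with limma 3.58.1 (lmFit, eBayes; R 4.3.3). Tests were two-sided and p-values were adjusted by Benjamini-Hochberg across 45037 probe sets. The fits have 2 and 1 residual degrees of freedom and limma adds 2.56 and 3.21. Clone as a block was an alternative, since each clone received both retroviruses and its arrays deviated together (correlation 0.54). The script was tested on simulated data. The number of arrays limits precision. The genes and lists were chosen with earlier results of these data known. Values on each array were given by rule for called genes, the 4 with the largest moderated t for retrovirus and 15 genes set by name, and for up to 3 genes per list by moderated t. Those of Slc16a1, Aldoa, Aldoc, Pfkfb4 and P4ha1 were added after their values were seen. Alternatives were other scalings, filters, priors, probe set choices and the omission of single arrays. Promoter windows came from RefSeq tables and no genome was used.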

Additional observations from a re-analysis of the deposited data

Results flagged for a closer look

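In 4 genes the Deaf-1 minus control values of the clones had opposite signs, each at least 0.15 in size on the log2 scale. With 1 array for each clone and retrovirus the difference was not tested, and all 4 genes lay above background on every array. Opposite signs were common in these data. Of the probe sets above background, only 15.1% were higher with Deaf-1 in both clones and 21.3% lower in both. Over all probe sets the changes in the clones had a correlation of -0.31. The share of probe sets with opposite signs at this size was not counted, so the 4 genes are not set apart from the rest. The value for Egln2 was 0.26 in E1 and -0.25 in C1, a difference of 0.51. That for Ankrd37, an ankyrin repeat protein induced by HIF, was -0.18 in E1 and 0.41 in C1, a difference of -0.59. That of Slc16a1 was -0.31 in E1 and 0.17 in C1, a difference of -0.48, and that of Pfkfb4 0.23 in E1 and -0.15 in C1, a difference of 0.38.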

How the results depend on the processing

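For retrovirus, 0 of the 36 genes passed an unadjusted p under 0.01 of limma in any setting. Over all probe sets the count was 5, against 11 with clone as a replicate block, 2 with the filter at background, 1 with a mean of at least 6, 25 with an intensity trend in the prior (16 higher, 9 lower) and 2 to 47 with 1 array left out. For clone, 49 probe sets and 1 gene of the set passed the adjusted threshold. The counts were 2306 and 9 without a retrovirus term, 414 and 2 with the filter at background, 2340 and 9 with a mean of at least 6, 1286 and 4 after quantile normalisation, 1591 and 7 after median centring, 936 and 3 after cyclic loess and 1696 and 7 with an intensity trend. Averaging a gene's probe sets gave 2 genes, and leaving out 1 array, with clone alone in the fit, gave 0 to 0 in both counts, with 5292 to 8919 probe sets at an unadjusted p under 0.05. Of the clone differences of the 36 genes, 0 changed sign under the alternatives with all 4 arrays, although a second Egln1 probe set, not used in them on its own, gave -0.16, and Epas1 was 2.39 to 3.02 with an adjusted p of 0.000173 to 0.0471. Among the retrovirus values, 17 in 12 genes changed sign with another scaling or choice of probe set, all at 0.13 or below in size, Egln2 (-0.018 after median centring) being the only one given above. With 1 array left out the retrovirus groups differ in clone, so those values mix both comparisons. The Deaf-1 minus control value then ran over -1.18 to 1.95 for Epas1, -1.16 to 1.90 for Aldoc, -0.70 to 0.56 for Slc16a1, -0.56 to 0.64 for Pfkfb4, -0.24 to 0.39 for Hif1a, -0.28 to 0.13 for Slc2a1, -0.16 to 0.16 for Egln2, -0.14 to 0.20 for Hk2, -0.12 to 0.23 for Ldha, -0.052 to 0.47 for Adm, -0.048 to 0.43 for Vegfa, -0.041 to 0.27 for Ankrd37 and -0.025 to 0.16 for Pkm. The clone difference then ran over -0.22 to 0.19 for Ankrd37, -0.057 to 0.20 for Egln2, -0.14 to 0.031 for Arnt and -0.0084 to 0.17 for Pkm. Those 4 genes overlapped between clones with all arrays too. For the other settings the cause was not tested.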

Other observations

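Bnip3l, a mitophagy receptor and relative of Bnip3, was read only by 3 probe sets shared with its pseudogene Bnip3l-ps, so the source of the signal cannot be told apart. The brightest read 8.89 and 8.90 in E1 (Deaf-1, then control retrovirus), against 9.34 and 9.43 in C1. The next read 8.02 and 8.40 in E1, against 9.12 and 8.86 in C1, and the dimmest 7.89 and 7.83, against 8.39 and 8.52. All 3 were lower on both E1 arrays, by 0.49 to 0.79, while Bnip3 was higher on both. Gapdh, in a probe set shared with other symbols, read 12.96 and 12.89 in E1, against 12.92 and 12.92 in C1.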
